A study of Homo sapiens with 6 samples.

Results

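SR proteins and heterogeneous nuclear ribonucleoproteins (hnRNPs) are the main families of RNA-binding proteins that decide which splice sites a cell uses. Their genes were taken as every row of the count table whose symbol is SRSF followed by digits or begins with HNRNP, which gave 39 of 21619 rows, 12 SR and 27 hnRNP. PolyA RNA had been sequenced from HT1080, a human fibrosarcoma line, in 3 libraries of cells with stable overexpression of PGK1 (phosphoglycerate kinase 1, a glycolytic enzyme; group PGK1_OE) and 3 libraries of cells labelled wild type (group WT). The labels give the same line, tissue and batch for both groups, and no drug or time. They do not say whether the WT cells carry an empty vector, whether the overexpressing line is 1 clone or a pool, or whether replicates were grown apart, so the p-values speak only for the scatter of these 6 libraries, whose source may be technical.

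An SR protein carries 1 or 2 RNA recognition motifs and a tail rich in arginine and serine. Bound to an exon it usually helps the U1 and U2 particles to find the neighbouring splice sites, and kinases of the SRPK and CLK families set its activity and place in the nucleus. The hnRNPs coat nascent transcripts, and many of them, hnRNP A1 above all, oppose SR proteins by silencing exons. Members of both families limit their own amount by splicing in an exon with a stop codon, which sends the transcript to nonsense-mediated decay.

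The libraries held 34425162 to 40538274 counts, and 14322 rows passed the filter on low counts and were tested. In FPKM (fragments scaled to gene length and library size), PGK1 stood at 2410.4 ± 119 in PGK1_OE and 103 ± 1.57 FPKM in WT (SD, n = 3 each; log2 fold change 4.60, SE 0.04, edgeR adjusted p = 9.65e-14). Of all rows tested, 35.4% rose and 35.8% fell in PGK1_OE at an adjusted p under 0.05, 71.2% together, so a call on a single gene is common here. Of the mesenchymal markers checked, 8 of 8 were measured and rose, with a summed level of 2884 to 2956 FPKM in PGK1_OE and 1603 to 1875 FPKM in WT. Those of epithelial cells summed to 0 to 0.0363 FPKM in PGK1_OE and 0.624 to 0.745 FPKM in WT, with 3 of 5 (EPCAM, KRT5 and GRHL2) at 0 in every library. Bulk RNA cannot tell fewer cells of a type from less RNA per cell, and the part of these markers in the results was not tested. The blood markers summed to at most 0.268 FPKM and the endothelial ones to 1.64 to 2.47 FPKM in PGK1_OE and 0.625 to 0.717 FPKM in WT. The higher endothelial sum came from PECAM1, with means of 1.92 FPKM in PGK1_OE and 0.434 FPKM in WT. VWF (0.0868 in PGK1_OE, 0.148 in WT, not called) and CDH5 (0.0239 and 0.0884, not tested) had lower means in PGK1_OE.

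The hnRNP mRNAs mostly rose and the SR mRNAs split. Of 24 tested hnRNP rows 16 rose, 5 fell and 3 were not called, with a median log2 fold change of 0.63, beside -0.02 for all rows tested. Without the copies and the readthrough row, left out after seeing the data, 15 of 20 hnRNP rows rose and 4 fell, with 10 up and 1 down by at least 1.5-fold. Of 11 tested SR rows 4 rose, 5 fell and 2 were not called, with a median of -0.07. Of the SR rises, SRSF1, SRSF2 and SRSF9 share exons with another gene, and SRSF10 does not. The hnRNP share of rises is thus above the 35.4% of all rows, while the SR shares lie near the background in both directions. Among rows with an average log2 CPM (counts scaled to library size) of at least 5, where most members lie, 43.1% rose and 40.9% fell, with 20.4% up and 18.3% down by at least 1.5-fold. A change of at least 1.5-fold was called upward for 11 hnRNP and 2 SR genes and downward for 2 and 2, against 21.1% upward and 21.3% downward in the whole table. The 3 PGK1_OE libraries all lay above the 3 WT libraries for 17 hnRNP and 4 SR rows and below them for 5 and 5, where the whole table has 37.9% above and 38.5% below. The 4 members not tested were SRSF12 and HNRNPCL1, at 0 counts in all 6 libraries, and HNRNPCL2 and HNRNPCL4, with at most 16 counts in any library.

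**Figure D1:**
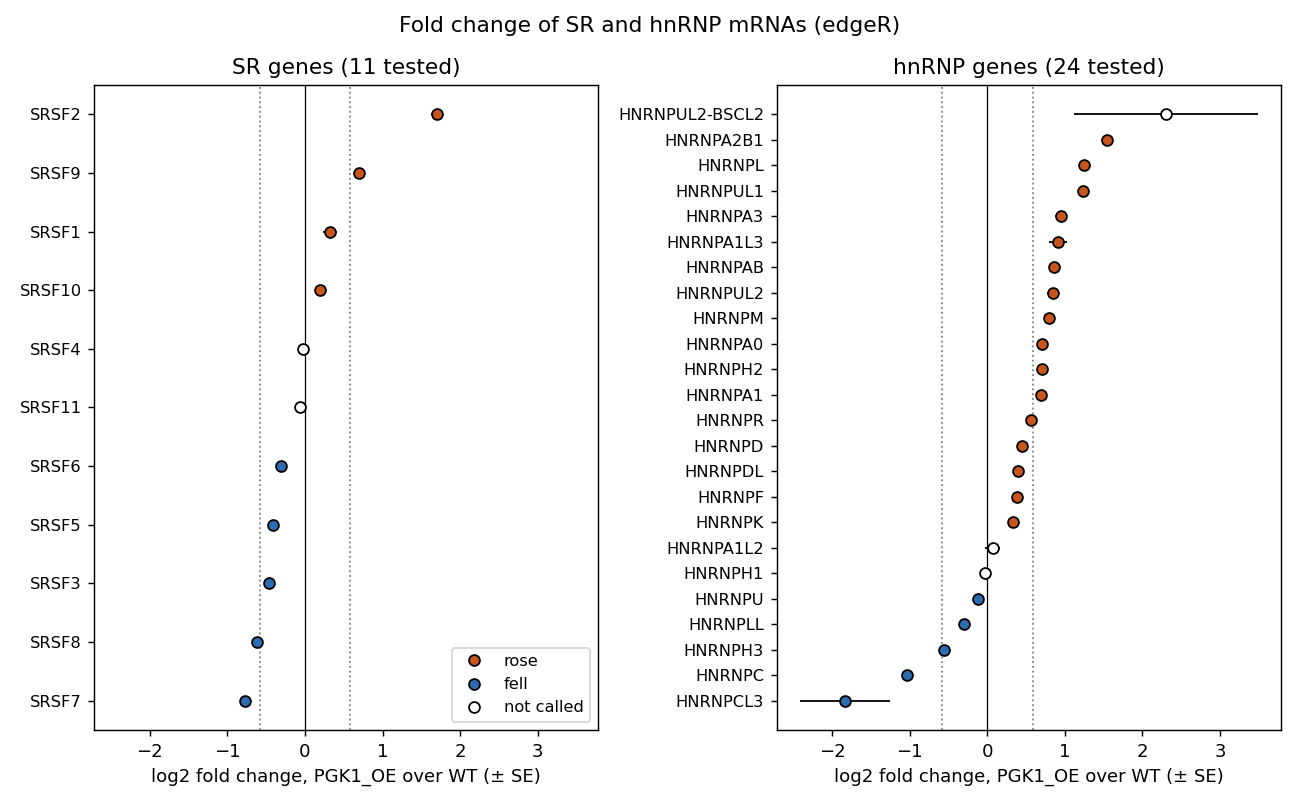
Log2 fold change of each tested SR gene (left panel, 11 genes) and hnRNP gene (right panel, 24 genes) in PGK1_OE over WT, with the standard error as a bar; filled points passed the test, open points did not, and dotted lines mark 1.5-fold. SRSF2 (1.71) and HNRNPA2B1 (1.54) lead the called rises, HNRNPC (-1.04) falls 2.06-fold, and the SR genes lie on both sides of 0.

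SRSF2, also called SC35 and known from nuclear speckles, had the largest rise of the SR genes. It stood at 273, 302 and 337 CPM in the PGK1_OE libraries, against 89.6, 98.1 and 91.7 CPM in the WT libraries. No PGK1_OE library came near the WT range. Its log2 fold change of 1.71 (SE 0.08, edgeR adjusted p = 1.47e-07) lay above that of 95.2% of all rows tested. SRSF2 (chromosome 17, 76734115 to 76737374, minus strand of GRCh38) shares 1106 exonic bases with MFSD11 on the opposite strand. MFSD11 had 2547, 2651 and 670 counts in PGK1_OE and 1243, 641 and 1405 in WT, while SRSF2 had 10932, 11985 and 11859 in PGK1_OE and 3396, 3465 and 3357 in WT. The part of reads from MFSD11 in the SRSF2 counts was not tested.

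SRSF9, an SR protein with a short arginine-serine tail, stood at 177, 184 and 185 CPM in PGK1_OE and 112, 106 and 117 CPM in WT. The groups did not overlap (log2 fold change 0.70, SE 0.05; edgeR adjusted p = 6.42e-08). It shares exons with GATC on the opposite strand, which fell by 0.23 on the log2 scale. SRSF1, the prototype of the family (ASF/SF2), rose less, with 346, 422 and 416 CPM in PGK1_OE and 295, 333 and 319 CPM in WT (0.32, SE 0.09, edgeR adjusted p = 0.0132). SRSF10, which represses splicing when it loses its phosphates after heat shock, was at 172 ± 15.1 CPM in PGK1_OE and 150 ± 3.53 CPM in WT (SD, n = 3 each; 0.19, SE 0.06, edgeR adjusted p = 0.0135). Leaving out PGK1_OE replicate 2 ended both calls, with an edgeR adjusted p of 0.0572 for SRSF1 and 0.0570 for SRSF10. Without PGK1_OE replicate 3 the SRSF10 call was also lost (edgeR adjusted p = 0.0602). SRSF1 shares 1890 exonic bases with the row AC015813.2 on the same strand, which rose by 1.12 on the log2 scale.

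The SR genes that fell were SRSF7, SRSF8, SRSF3, SRSF5 and SRSF6. SRSF7, the SR protein with a zinc knuckle, was at 151, 160 and 161 CPM in PGK1_OE and 269, 289 and 251 CPM in WT, so every PGK1_OE library lay below every WT library (-0.77, SE 0.05, edgeR adjusted p = 9.13e-08). SRSF3, which shares with SRSF7 a role in mRNA export, was at 401, 415 and 439 CPM in PGK1_OE and 585, 571 and 569 CPM in WT (-0.46, SE 0.04, edgeR adjusted p = 7.23e-07). SRSF8, a retrotransposed copy of SRSF2, went the other way from its parent, at 41.8 ± 1.74 CPM in PGK1_OE and 64.4 ± 0.595 CPM in WT (-0.62, SE 0.05). SRSF5 fell by 0.41 and SRSF6 by 0.31 on the log2 scale. SRSF4 (-0.03, SE 0.05) and SRSF11 (-0.07, SE 0.05) were not called, with edgeR adjusted p of 0.609 and 0.237. By structure, the genes with a single recognition motif (SRSF2, SRSF3, SRSF7 and SRSF8) held 3 of the 5 falls and the largest rise. Those with a pair of motifs (SRSF1, SRSF4, SRSF5, SRSF6 and SRSF9) held 2 rises and 2 falls, and SRSF10 and SRSF11 held 1 rise. Of all rows tested 35.4% rose and 35.8% fell. The groups are small, and a link to structure was not tested.

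**Figure D2:**
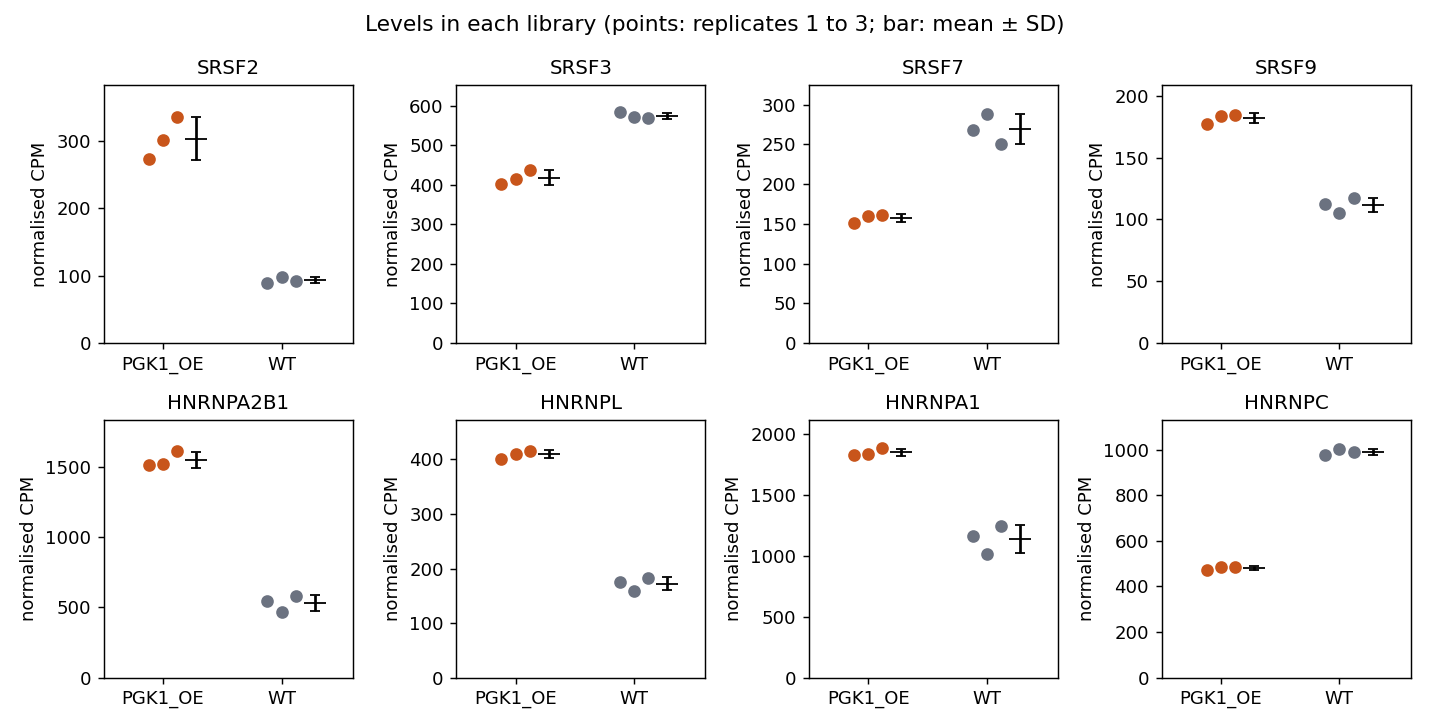
Normalised CPM of 8 member genes in each library, with PGK1_OE replicates 1 to 3 on the left and WT replicates 1 to 3 on the right of each panel; the black bar is mean ± SD. In each of the 8 panels the PGK1_OE and WT points do not overlap, with SRSF2, SRSF9, HNRNPA2B1, HNRNPL and HNRNPA1 higher and SRSF3, SRSF7 and HNRNPC lower in PGK1_OE. These 8 genes are a selection of the members. Lack of overlap is common here, with 37.9% of all rows tested above and 38.5% below.

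In GENCODE 29 each of the 12 SR genes has at least 1 transcript marked for nonsense-mediated decay, against 14 of the 27 hnRNP genes. In 7 SR and 3 hnRNP genes an exon missing from the principal coding transcript holds the stop codon. The starts of such exons are printed for 3 SR genes that fell and for both hnRNP L genes, up to and including the stop codon, which is in capitals. They lie at chr6:36599821-36600276 on the plus strand (SRSF3), chr2:38748898-38749346 on the minus strand (SRSF7), chr20:43459153-43459420 on the plus strand (SRSF6), chr19:38841613-38841682 on the minus strand (HNRNPL) and chr2:38577920-38578002 on the minus strand (HNRNPLL), all in GRCh38.
SRSF3: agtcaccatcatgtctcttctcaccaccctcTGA
SRSF7: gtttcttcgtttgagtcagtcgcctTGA
SRSF6: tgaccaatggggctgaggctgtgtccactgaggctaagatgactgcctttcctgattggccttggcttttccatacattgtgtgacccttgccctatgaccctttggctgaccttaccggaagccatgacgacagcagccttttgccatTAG
HNRNPL: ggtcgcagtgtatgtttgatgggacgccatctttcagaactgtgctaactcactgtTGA
HNRNPLL: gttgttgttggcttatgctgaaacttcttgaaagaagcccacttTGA
The stop comes 34 bases into the 456-base SRSF3 exon and 28 bases into the 449-base SRSF7 exon. The deposited counts are 1 number per gene, so transcripts with and without these exons are summed in every value given here.

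The hnRNP A/B proteins bind UAG-containing motifs and include the most abundant member of both families. HNRNPA1 had the highest FPKM of all 39 rows in both groups, at 728, 804 and 828 FPKM in PGK1_OE and 487, 432 and 581 FPKM in WT. Its counts rose 1.62-fold (edgeR adjusted p = 2.72e-05, with an SE of 0.07 on the log2 scale). HNRNPA2B1, which also sorts RNAs for transport, stood at 1517, 1522 and 1613 CPM in PGK1_OE, against 547, 466 and 583 CPM in WT. This was the largest called hnRNP rise, 2.92-fold (log2 fold change 1.54, SE 0.08, edgeR adjusted p = 2.84e-06). HNRNPA2B1 shares 368 exonic bases with CBX3 on the opposite strand, which rose by 0.56 on the log2 scale. HNRNPA3 rose by 0.94 and HNRNPA0 by 0.71 on the log2 scale.

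HNRNPA1L2 and HNRNPA1L3 are processed copies of HNRNPA1. HNRNPA1L2 was at 12.1 ± 0.720 CPM in PGK1_OE and 11.6 ± 0.0454 CPM in WT, with overlap between the groups. HNRNPA1L3 was at 21.3 ± 1.51 CPM in PGK1_OE and 11.3 ± 1.66 CPM in WT (log2 fold change 0.92, SE 0.11). Of all 50-base words in the copies' transcripts, 47.6% and 45.5% occur unchanged in HNRNPA1 transcripts, so reads from the parent can be counted on a copy and these 2 values are uncertain. SRSF8 shares no 50-base word with SRSF2 (0 of 3979).

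HNRNPL, which binds CA-rich RNA and represses the CD45 variable exons, stood at 402, 411 and 416 CPM in PGK1_OE and 176, 159 and 182 CPM in WT (log2 fold change 1.25, SE 0.05; edgeR adjusted p = 1.16e-09). HNRNPLL, a paralog, moved the other way, at 65.9, 64.4 and 66.9 CPM in PGK1_OE and 83.3, 78.4 and 80.3 CPM in WT (-0.30, SE 0.05, edgeR adjusted p = 1.06e-04). The ratio of HNRNPL to HNRNPLL was 8.72 ± 0.416 in PGK1_OE and 2.99 ± 0.195 in WT by FPKM (SD, n = 3 each). The pair was set side by side after its values were seen.

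HNRNPC, whose tetramer measures out nascent RNA and covers uridine tracts, was the main exception to the rise. It stood at 473, 487 and 483 CPM in PGK1_OE, against 978, 1002 and 989 CPM in WT. All 3 PGK1_OE libraries lay at about the same level, far below the WT range (log2 fold change -1.04, SE 0.03, edgeR adjusted p = 2.01e-10). Ranked by FPKM among the 39 rows, HNRNPC was 5 in PGK1_OE (227 ± 1.80 FPKM) and 2 in WT (465 ± 18.5 FPKM; SD, n = 3 each). The ratio of HNRNPA2B1 to HNRNPC was 1.78 ± 0.0995 in PGK1_OE and 0.384 ± 0.0819 in WT by FPKM, again a pair chosen after its values were seen. The HNRNPC-like copy HNRNPCL3 had 6, 9 and 2 counts in PGK1_OE and 14, 23 and 21 in WT. It entered the test only through its WT counts and was called (-1.84, SE 0.58, edgeR adjusted p = 0.0145). It is 1 of the 5 hnRNP falls counted among 24 rows and is not among the 4 counted without copies.

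In the U group, HNRNPUL1 was at 369, 373 and 377 CPM in PGK1_OE and 156, 151 and 170 CPM in WT (log2 fold change 1.23, SE 0.05, edgeR adjusted p = 7.07e-10). It shares 215 exonic bases with TGFB1 on the opposite strand, which rose by 1.35 on the log2 scale. HNRNPUL2 rose by 0.84, whereas HNRNPU, the scaffold attachment factor SAF-A, was slightly lower in PGK1_OE (630 ± 23.6 CPM, against 682 ± 6.50 CPM in WT; -0.12, SE 0.04, edgeR adjusted p = 0.0143). Leaving out PGK1_OE replicate 1, WT replicate 1 or WT replicate 3 ended that call, at edgeR adjusted p of 0.0604, 0.0520 and 0.0640. HNRNPU shares 3502 exonic bases with COX20 on the opposite strand, which fell by 0.36 on the log2 scale.

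The F/H genes, whose proteins bind runs of guanines, were mixed. HNRNPH2 rose (177 ± 3.65 CPM in PGK1_OE, 108 ± 3.21 CPM in WT; log2 fold change 0.71, SE 0.04) and HNRNPF rose by 0.38. HNRNPH3 was at 220, 229 and 242 CPM in PGK1_OE and 328, 357 and 334 CPM in WT (-0.56, SE 0.05, edgeR adjusted p = 4.86e-07). HNRNPH1 was not called (-0.03, SE 0.04, edgeR adjusted p = 0.520). The other hnRNPs rose: HNRNPAB by 0.86, HNRNPM by 0.79, HNRNPR by 0.56, HNRNPD by 0.45, HNRNPDL by 0.40 and HNRNPK, a protein with KH domains that bind C-rich RNA, by 0.33 on the log2 scale. HNRNPAB shares exons with PHYKPL on the opposite strand, which fell by 1.21 on the log2 scale.

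For the balance of the families, FPKM was summed over members, since it is per length. SR genes summed to 829, 885 and 895 FPKM in PGK1_OE and 1013, 1064 and 1005 FPKM in WT. The hnRNP genes summed to 3584, 3640 and 3802 FPKM in PGK1_OE and 2850, 2674 and 2953 FPKM in WT. The groups did not overlap in either sum. The lower SR sum in PGK1_OE rests on SRSF3: without it, an alternative added after seeing the data, the SR sums were 707, 767 and 768 FPKM in PGK1_OE and 693, 734 and 710 FPKM in WT, which overlap and lean the other way. The SR sum over the hnRNP sum was 0.237 ± 0.00603 in PGK1_OE and 0.365 ± 0.0297 in WT (SD, n = 3 each), a mean difference in log2 ratio of -0.62. Without SRSF3 the difference was -0.31. As shares of all counts, the SR rows took 0.229% ± 0.0116 in PGK1_OE and 0.240% ± 0.00524 in WT, with overlap between the groups, and the hnRNP rows took 1.03% ± 0.0234 in PGK1_OE and 0.751% ± 0.0221 in WT, with none.

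SRSF1 and HNRNPA1 are the textbook pair of antagonists in the choice between competing 5′ splice sites. The ratio of their FPKM values was 0.113, 0.129 and 0.117 in PGK1_OE and 0.162, 0.210 and 0.142 in WT. The log2 difference was -0.50, and an exact two-sided permutation test over the 6 libraries gave p = 0.1, the smallest value that 3 against 3 allows. Within the SR family the ratio of SRSF2 to SRSF3 was 1.20 ± 0.103 in PGK1_OE and 0.160 ± 0.00809 in WT by FPKM, and 0.725 ± 0.0430 in PGK1_OE and 0.162 ± 0.00919 in WT by counts (SD, n = 3 each), a pair chosen after its values were seen.

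**Figure D3:**
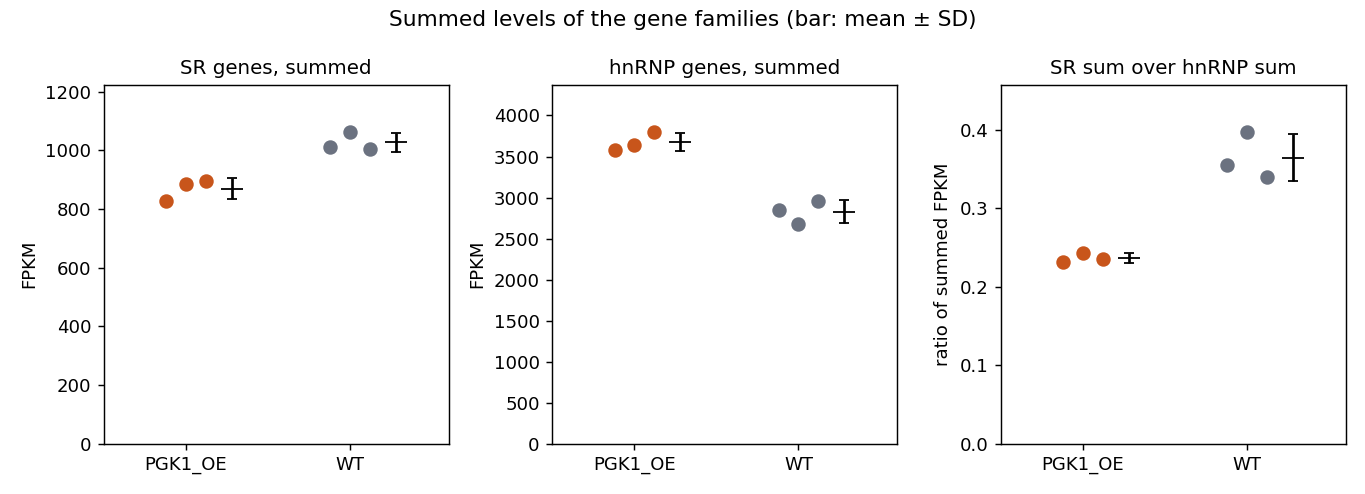
Summed FPKM of the 12 SR rows (left), of the 27 hnRNP rows (middle) and their ratio (right) in each library, with PGK1_OE left of WT and the mean ± SD as a black bar. The ratio lies between 0.231 and 0.243 in PGK1_OE and between 0.341 and 0.398 in WT.

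SRSF3 was the member whose change by counts and by deposited FPKM differed most among those with at least 1 FPKM in each group. By FPKM SRSF3 was at 122, 118 and 128 in PGK1_OE and 320, 330 and 295 in WT, a log2 ratio of -1.36 where the counts gave -0.46. On log2(FPKM + 1) the calls of SRSF1, SRSF10 and HNRNPDL were lost (limma adjusted p of 0.137, 0.253 and 0.257) and SRSF11 was called lower (0.0285). HNRNPR, at 0.56 by counts, was at 0.25 on log2(FPKM + 1) without the filter and was not called (limma adjusted p = 0.0703). The rank of SRSF3 among the 39 rows by FPKM was 15 in PGK1_OE and 3 in WT. A count, a library total and an FPKM together give an implied length for each library. It assumes that the FPKM was made from these counts, which the sources used do not say. For SRSF3 this implied length was 3243, 3468 and 3376 bases in PGK1_OE and 1845, 1779 and 1945 bases in WT. The log2 ratio of 0.86 stands at the 99.9th percentile of absolute ratios among 10544 rows with at least 1 FPKM and 10 counts in every library, whose median was 0.02 and whose 95th percentile was 0.21. GENCODE 29 lists SRSF3 coding transcripts of 4222 and 869 bases and decay transcripts of 1095 and 595 bases. It also lists SRSF3 transcripts that keep an intron, of 1518, 2376, 2655 and 544 bases. Transcripts were not counted one by one in these files, and what moved the implied length was not tested. Ratios above the 95th percentile were also seen for HNRNPA2B1 (3775 ± 236 bases in PGK1_OE and 3078 ± 310 in WT), HNRNPR (3576 ± 173 and 2985 ± 252) and SRSF6 (3751 ± 207 and 3182 ± 82), and for HNRNPA3 in the other direction (3087 ± 726 and 3667 ± 883, with overlap), each given as PGK1_OE and then WT.

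**Figure D4:**
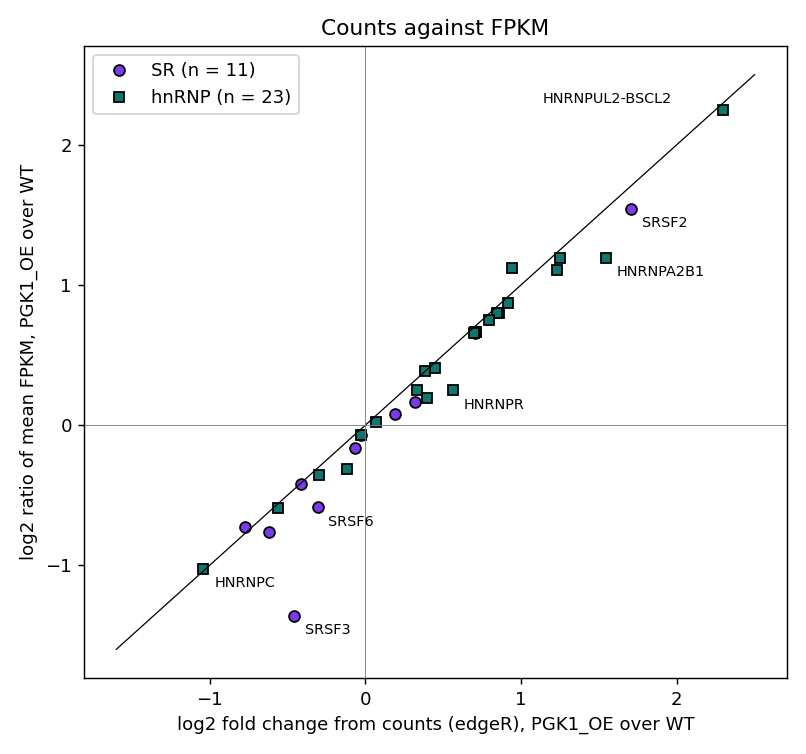
Log2 fold change from counts (horizontal axis) against the log2 ratio of mean FPKM (vertical axis), both PGK1_OE over WT, for the 11 SR and 23 hnRNP genes that were tested and had at least 1 FPKM in each group's mean; the line marks equality. SRSF3 lies farthest from the line, at -0.46 and -1.36.

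Promoters, taken as 250 bases before and 50 after each gene start in RefSeq (GRCh38.p14), were present for 11 of the SR and 24 of the hnRNP genes; SRSF2, HNRNPA1, HNRNPA1L3 and HNRNPCL3 had no entry. They were searched on both strands for the E-box CACGTG, which the MYC and MAX pair and related factors bind, and for TTTCCCGC and TTTGGCGC, forms of the E2F site. A gene was counted when any of its entries held the motif, and the genes set beside the members were not limited to those tested here. The E-box stood in 0 of 11 SR and 7 of 24 hnRNP genes (29.2%), against 8.77% of 27305 genes with an entry. Of the 7, 6 are among the 14 hnRNP genes with an entry that rose, and 1 is HNRNPH3, which fell. TTTCCCGC was found in 1 SR gene (SRSF10) and 2 hnRNP genes (HNRNPLL and HNRNPUL1) against 1.98% of all, and TTTGGCGC in none of the members against 0.795%. The stretches around the E-boxes are printed, with the motif in capitals, for the 6 genes that rose and for HNRNPH3. They lie at chr2:177212696-177212755 on the plus strand (HNRNPA3), chr4:82373986-82374045 on the minus strand (HNRNPD), chr4:82430349-82430408 on the minus strand (HNRNPDL, 1 of 2 E-boxes), chrX:101408153-101408212 on the plus strand (HNRNPH2, the first of 2 E-boxes), chr19:8444906-8444965 on the plus strand (HNRNPM), chr19:41262553-41262585 on the plus strand (HNRNPUL1) and chr10:68331616-68331675 on the plus strand (HNRNPH3).
HNRNPA3: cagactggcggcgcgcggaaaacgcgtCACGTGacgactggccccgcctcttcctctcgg
HNRNPD: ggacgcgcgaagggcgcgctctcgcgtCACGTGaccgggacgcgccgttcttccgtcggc
HNRNPDL: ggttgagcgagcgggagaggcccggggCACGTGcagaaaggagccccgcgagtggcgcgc
HNRNPH2: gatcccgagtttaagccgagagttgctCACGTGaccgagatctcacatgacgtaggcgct
HNRNPM: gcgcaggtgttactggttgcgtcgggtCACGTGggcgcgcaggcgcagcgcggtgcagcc
HNRNPUL1: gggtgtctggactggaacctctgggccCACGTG
HNRNPH3: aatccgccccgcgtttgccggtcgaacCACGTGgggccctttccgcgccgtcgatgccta
The motif begins at -71 in HNRNPA3, -27 in HNRNPD, -156 in HNRNPDL, -42 in HNRNPH2 and HNRNPM, 23 in HNRNPUL1 and -50 in HNRNPH3, counted in bases from the gene start. A match is only these letters in this window, and binding was not measured.

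Genes that work with both families were counted from lists, to be read against the 35.4% and 35.8% of the whole table. The lists were chosen with earlier results of these data known. Of 10 hnRNPs that carry other symbols 6 rose and 2 fell (median log2 fold change 0.31). PCBP1, called hnRNP E1, rose by 1.06, RBMX, hnRNP G, by 0.71, and SYNCRIP, hnRNP Q, by 0.58, while the cold-inducible CIRBP was at 87.8 ± 2.80 CPM in PGK1_OE and 274 ± 14.5 CPM in WT (-1.64, SE 0.05, edgeR adjusted p = 1.15e-10).

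The list for the Sm ring and the U1 and U2 particles also holds U2AF1, U2AF2 and SF1, which all rose. Of its 25 genes 19 rose and 2 fell (median 0.28). SF3A3 (1.22) and SF3B4 (1.07) of the U2 particle, the Sm protein SNRPD3 (1.23) and U2AF2 (0.54), which reads the polypyrimidine tract, were among the rises. Of 13 genes of the U4/U6.U5 tri-snRNP 9 rose and 4 fell (median 0.15), with PRPF8, the core of the catalytic centre, up by 0.65, PRPF31 by 0.46 and PRPF6 by 0.38, and EFTUD2 at -0.26. SR-related proteins were divided like the SR genes, with 9 of 22 up and 11 down (median -0.09). RSRC2 (-0.93), SCAF8 (-0.99), SREK1 (-0.67) and PPIG (-0.66) had the smallest adjusted p of that list.

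Of 9 SR protein kinases 3 rose and 5 fell (median -0.33). CLK1 fell by 0.55, CLK4 by 0.71 and SRPK2 by 0.43, while SRPK1, which phosphorylates SR proteins in the cytoplasm, rose by 0.32. Of 9 genes of import, export and arginine methylation 2 rose and 6 fell (median -0.28). The mRNA export receptor NXF1 rose (61.9 ± 1.64 CPM in PGK1_OE, 27.2 ± 0.563 CPM in WT), and PRMT5 (-0.45), PRMT1 (-0.34) and the importin TNPO2 (-0.45) fell. Of 10 genes of nonsense-mediated decay 1 rose and 7 fell (median -0.33), with the kinase SMG1 at 167 ± 6.88 CPM in PGK1_OE and 262 ± 5.62 CPM in WT (-0.65, SE 0.04, edgeR adjusted p = 5.45e-08), SMG9 at -0.46 and UPF2 at -0.45. Of 21 other splicing regulators 10 rose and 8 fell (median 0.14), among them MBNL1 (0.99), KHSRP (0.95), ELAVL1 (0.62) and RBM39 (-0.61).

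**Figure D5:**
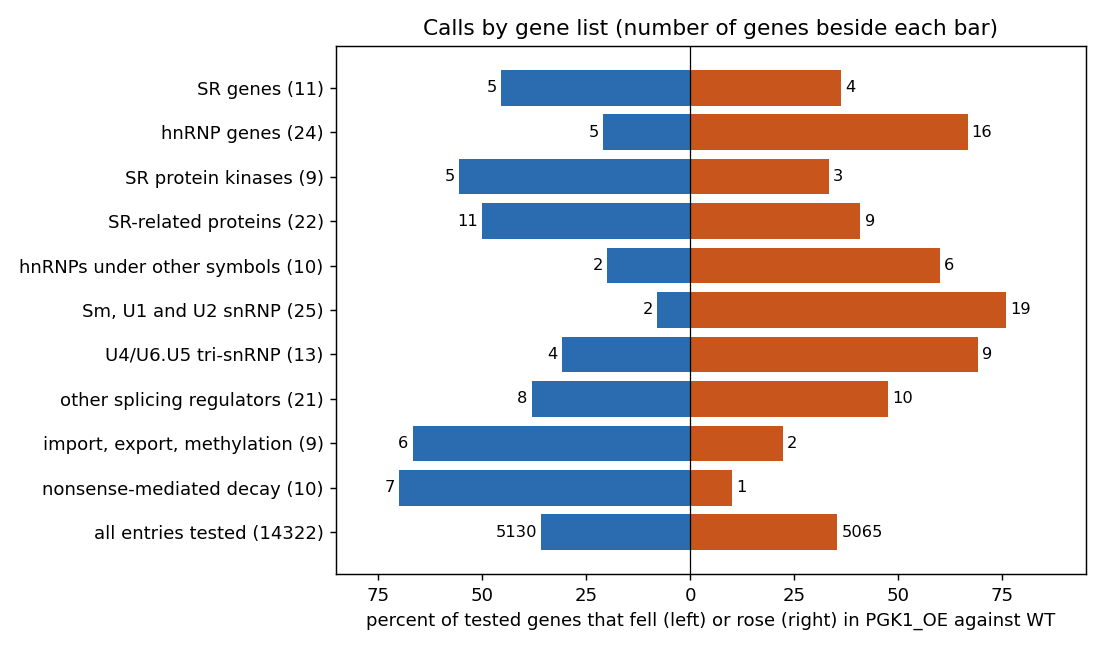
Share of tested genes of each list that rose (bars to the right) or fell (bars to the left) in PGK1_OE against WT at an adjusted p under 0.05, with the number of genes beside each bar and the number tested in brackets; the bottom bar is the whole table. The hnRNP genes (16 up, 5 down of 24) and the Sm, U1 and U2 list (19 up, 2 down of 25) lean to rises, and the nonsense-mediated decay genes (7 down, 1 up of 10) to falls. The Sm, U1 and U2 list also holds U2AF1, U2AF2 and SF1.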

How the data were processed

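Members and lists were chosen with earlier results of these data known. The sample titles gave the groups, and the sample descriptions tied each column to its sample. The submitters' processing notes name fastp, HISAT and hg38. Tool versions, annotation, counting program and strandedness, and the source of FPKM are not given in the sources used. The deposited table of raw read counts per gene is not normalised. The authors' deposited FPKM values are, by their name, per length and library size, and the length used is not given. Counts were tested with edgeR 4.0.16 in R 4.3.3 (filterByExpr, TMM, robust quasi-likelihood test with group as the term, Benjamini-Hochberg over 14322 rows, two-sided; threshold 0.05). The standard error is the absolute log2 fold change over the root of F. CPM are TMM-normalised. Without strand, reads of overlapping genes cannot be told apart. Gene identifiers were matched to GENCODE 29 (GRCh38, which is hg38) for coordinates and overlaps. Fits were tested on simulated data.

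Named genes were all members, SRSF1 with HNRNPA1 as a pair, and, in each list, up to 4 genes ranked by adjusted p. The planned protein features were not analysed here, as no protein table was used. No 2 libraries of a group were alike within counting noise (chi-square over its degrees of freedom 7.93 to 15.2). Alternatives tried were RLE scaling, library totals, PGK1 left out of the scaling, other count filters, DESeq2 1.42.0, limma-voom and limma on log2(FPKM + 1) or log2(FPKM + 0.1) with limma 3.58.1, the replicate number as a block, each library left out, and an adjusted p under 0.01. A further 3 were chosen after seeing the data. They left out SRSF3 from the ratio, the copies and the readthrough row, or members that share exons with another gene of the count table. Depth limits precision mainly for the HNRNPC-like copies.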

Additional observations from a re-analysis of the deposited data

How the results depend on the processing

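Each called change of at least 1.5-fold in members other than HNRNPCL3 kept its direction and its call under each alternative that gave a value. Over 627 single-member results, 596 kept direction and call, 23 lost the call, 6 gained it and 2 changed sign, both uncalled genes: with 1 library left out SRSF4 ran between -0.054 and 0.003 (the high end without WT replicate 1) and HNRNPH1 between -0.043 and 0.011 (the high end without WT replicate 2). The counts of SR rises and falls and hnRNP rises and falls were 4, 5, 16 and 5. SR rises fell to 2 on log2(FPKM + 1) with or without the filter, on log2(FPKM + 0.1) and at an adjusted p under 0.01, where hnRNP falls were 3. Leaving out members that share exons with another gene of the count table took away 3 SR and 9 hnRNP rows. Members that share exons only with genes absent from that table were kept (HNRNPA3, HNRNPM, HNRNPD, HNRNPK, HNRNPA1L2 and SRSF4). The SR rows taken away were SRSF1, SRSF2 and SRSF9, which all rose. Left were 1 SR rise (SRSF10), 5 SR falls, 10 hnRNP rises and 3 hnRNP falls, with medians of -0.36 for SR and 0.395 for hnRNP. The SR median was -0.111 with library totals, -0.164 on log2(FPKM + 1) with or without the filter and -0.167 on log2(FPKM + 0.1). The hnRNP median was 0.585 with library totals, 0.507 without the low-count filter, 0.702 at 1 CPM in 3 libraries, 0.66 on log2(FPKM + 0.1) and 0.396 on log2(FPKM + 1) without the filter. The log2 difference in the SR to hnRNP ratio was -0.521 by CPM, -0.516 by geometric mean and -0.312 without SRSF3. Leaving out each library in turn gave 2 to 4 SR rises, 3 to 5 hnRNP falls, SR medians of -0.112 to -0.027 and hnRNP medians of 0.559 to 0.66. On log2(FPKM + 1) with the filter, called rises were 1 for the SR kinases and 3 for the SR-related genes, and falls were 5 for the other regulators. Where no reason is named, the cause was not tested. Library totals moved the median of all rows to -0.063, from -0.018.

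Same-numbered libraries did not deviate together (correlations of deviations -0.013, -0.013 and 0.095), and PGK1_OE replicates 1 and 2 correlated best with another number, so the numbers were not taken as pairing. With the replicate block 9943 rows were called in place of 10195, and the member counts were again 4, 5, 16 and 5.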

Other observations

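A pair of readthrough rows had counts of 0 in some libraries and not in others of the same group. HNRNPUL2-BSCL2, which joins HNRNPUL2 to the next gene, had 1493, 2072 and 1521 counts in PGK1_OE and 449, 534 and 0 counts in WT. It was not called, at a log2 fold change of 2.30 (SE 1.19; edgeR adjusted p = 0.155), and leaving out WT replicate 3 gave 1.72 (edgeR adjusted p = 4.88e-04). It shares 2391 exonic bases with HNRNPUL2 on the same strand, which had 5354 counts in WT replicate 3, against 5243 and 4144 in WT replicates 1 and 2. RPL36A-HNRNPH2, which shares 362 exonic bases with HNRNPH2, had 434, 0 and 72 counts in PGK1_OE and 0, 0 and 132 in WT.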
